A study of Mus musculus with 12 samples.

Results

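The nuclear genes of oxidative phosphorylation were described in RNA from adult mouse spinal cord, before and after a demyelinating lesion. They were taken by symbol, as the genes whose names begin with Nduf followed by a, b, c, s or v, the genes Sdha to Sdhd, and those that begin with Uqcr, with Cox4 to Cox8 or with Atp5, without pseudogenes marked -ps. Of 54838 genes counted, 98 matched, and the 96 with at least 10 counts in at least 3 of the 12 libraries are described here as the members. By role or by name they were 7 core and 32 accessory subunits of complex I, 4 subunits of complex II, 8 of complex III, 19 of complex IV and 16 of complex V, with 10 assembly factors or other proteins that share the name pattern. The accessory group holds the processed pseudogenes Ndufb4c, Ndufa11b and Ndufs6b, and complex IV holds Cox6c2. These were grouped by name, are not subunits and stay in the counts given below.

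Complexes I and II pass electrons from NADH and from succinate to ubiquinone, complex III passes them on to cytochrome c, and complex IV reduces oxygen with them. Complexes I, III and IV pump protons across the inner mitochondrial membrane, and complex V, the ATP synthase, makes ATP from the gradient that results. Apart from complex II, each combines a part encoded in mitochondrial DNA with many subunits encoded in the nucleus. Maturing oligodendrocytes use this pathway heavily while they make myelin, and later lean more on glycolysis.

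In this series 4 groups of 3 libraries each were compared, all from mice at P60. The control was Olig1+/+;Tet1fl/fl and the mutant Olig1cre/+;Tet1fl/fl, so that both carried the floxed Tet1 alleles, and the cre was driven from the Olig1 locus, which is active in the oligodendroglial lineage. In each genotype, tissue taken 4 days after injection of lysolecithin (LPC), a detergent-like lipid that strips myelin at the injection site (4dpl), was compared with unlesioned tissue from the other side of the cord. Cells were enriched for oligodendroglia on a Percoll gradient after dissociation with papain, not sorted, and came from mice of either sex. Tet1 was at 11.7 to 18.3 CPM, which are counts scaled by library size, in the control libraries and at 9.94 to 21.5 CPM in the others. These ranges overlapped, and the others are called by their label, as the libraries labelled mutant. The paper states that the allele loses exon 4 alone, and it found fewer oligodendroglial cells with TET1 protein in the mutants. Counts over the whole gene in unsorted cells do not test that deletion.

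Total counts per library were between 34805086 and 67251544, at which counting error is small for most members, and counts of the 37 mitochondrially encoded genes were 0 throughout. Levels are given as CPM after TMM, a scaling that assumes that most genes do not change between libraries. Oligodendrocyte markers, 10 in all of which none was at 0 in all libraries, summed to 16805 to 21052 CPM unlesioned and 23934 to 34829.6 CPM at 4dpl in the control, and to 14760.1 to 28865 and 26124 to 70149.6 CPM in the libraries labelled mutant. Other cells were present too. The 6 neutrophil markers summed to 44999.5 to 97376 CPM unlesioned and 28669 to 35384 CPM at 4dpl in the control, and to 29706 to 117337 and 21251 to 107082 CPM in the libraries labelled mutant. For the 5 erythroid markers these sums were 34187 to 99957 and 12099.6 to 40863 CPM in the control, and 18229 to 42729 and 27362 to 44337 CPM in the libraries labelled mutant. With the lesion, pooled over genotypes, 9 of 10 microglia or macrophage markers, 3 of 8 astrocyte markers and 2 of 10 oligodendrocyte markers rose and 0 of them fell (edgeR quasi-likelihood test, at the thresholds given below), while 0 neutrophil and 0 erythroid markers passed. None of the 10 microglia or macrophage markers was at 0. In the control these summed to 3779.7 to 6923 CPM unlesioned and 11719.7 to 18238 CPM at 4dpl, and in the libraries labelled mutant 3819 to 10537 CPM unlesioned and 11357 to 15841 CPM at 4dpl. The part of these cell types in the values of the members was not tested, and in such bulk samples fewer cells of a type and less RNA per cell cannot be told apart.

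Subunits of one complex did not have equal transcript levels. Levels of different genes were compared as CPM per kilobase of the principal mRNA, averaged over the 12 libraries. By this measure Cox4i1, a structural subunit of complex IV, was the highest of the 96 at 468, followed by Cox6a1 at 448 and by Atp5b, the catalytic beta subunit of the ATP synthase, at 411. The median per-length level was 188 for complex III and 167 for complex V, 96.7 for complex II, 92.9 for complex IV, 90.3 for the accessory and 60.8 for the core subunits of complex I, and 14.3 for the assembly factors, which act on each complex only while it is being built. Within complex I the small accessory subunits Ndufa1 (256) and Ndufa3 (251) stood highest and the large iron-sulfur core subunit Ndufs1 (31.0) was the lowest of the core, in which Ndufs7 was the highest (146). Complex II ran from Sdhc (23.8), a membrane anchor, to Sdhb (141), its iron-sulfur subunit, and complex III from the core protein Uqcrc2 (51.9) to Uqcrq (278), a small subunit. Complex V ran from Atp5o (49.97), a stalk subunit, to Atp5b, and the assembly factors from Ndufaf4 (3.45) to Cox7a2l (55.3), which takes part in joining complexes into supercomplexes. The lowest of complex IV was Cox8c (0.269) and the lowest of complex I the processed pseudogene Ndufa11b (0.358).

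The first comparison asked how the members differed between lesioned and unlesioned tissue. Pooled over genotypes, 46 of the 96 members rose and 1 fell in edgeR's quasi-likelihood test, by up to 1.40 on the log2 scale (Cox7a1). The thresholds were an unadjusted p below 0.01 and a Benjamini-Hochberg adjusted p below 0.05. The 1 that fell, Cox8c, met the count threshold for members through unlesioned libraries only. Of all 31109 genes tested, 14.2% were called higher and 18.6% lower, but of the 9495 protein-coding genes with a mean above 10 CPM, the range that holds 83 of the 96 members, 41.3% were called higher. Among those 83 members 43 rose, a share not far from that background. The median log2 difference was 0.42 for the 96 members, -0.28 for all genes tested and 0.47 for the protein-coding genes above 10 CPM. In 28 members every one of the 6 libraries at 4dpl lay above every one of the 6 unlesioned ones, and 1 member had them all below. The percentages for all genes tested were 7.44% above and 7.42% below, and 22.1% of the protein-coding genes above 10 CPM had all libraries above.

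**Figure D1:**
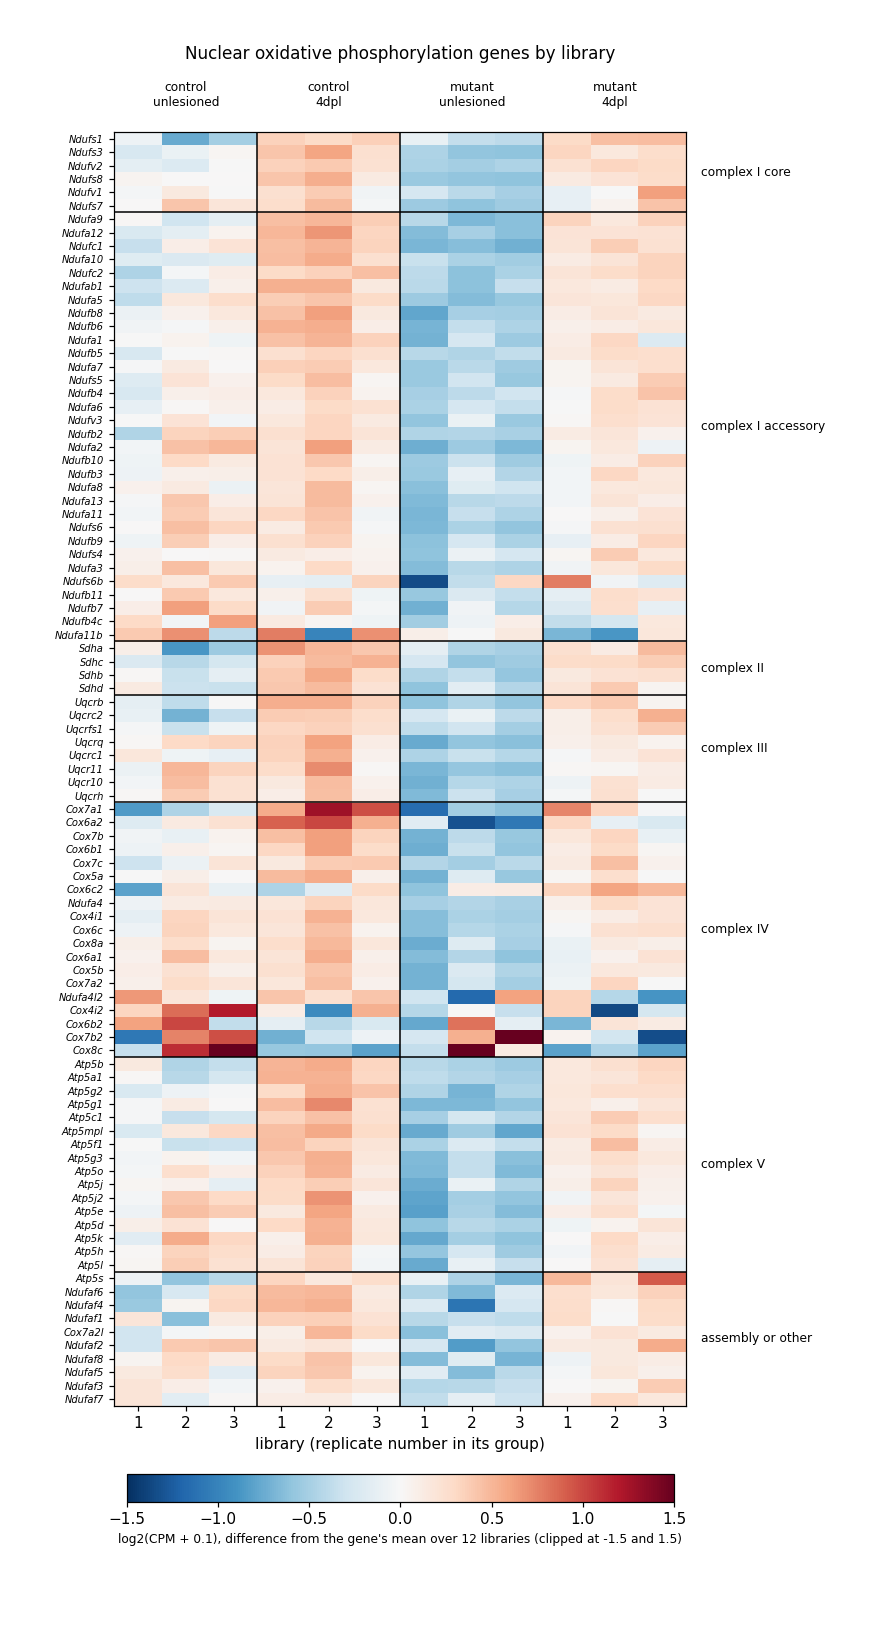
Each row is one of 95 members and each column one library, with colour for the difference of log2(CPM + 0.1) from the gene's mean over the 12 libraries. The libraries labelled mutant and unlesioned are low for most members and both 4dpl groups are high, while small subunits such as Ndufa2 and Uqcr11 are also high in control unlesioned replicates 2 and 3.

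Whether the lesion raised the pathway depended on how the libraries were scaled. Summed over the 96 members and scaled by TMM, the level was 8886, 9183 and 8942 CPM in the control unlesioned libraries and 11291, 12476 and 10217 CPM in the control 4dpl libraries. In the libraries labelled mutant it was 6164, 6875 and 6319.7 CPM unlesioned and 9445, 10429 and 10394 CPM at 4dpl, so that neither genotype's groups overlapped. As a share of all counts, with no TMM, the members held 0.782, 1.04 and 1.16% in the control unlesioned and 0.963, 1.07 and 0.930% in the control 4dpl libraries, and these overlapped. In the libraries labelled mutant the shares were 0.736, 0.801 and 0.802% unlesioned and 0.880, 0.841 and 0.897% at 4dpl, where the groups stayed apart. The TMM factors were 0.881 to 1.30 in the unlesioned and 0.806 to 0.932 in the 4dpl libraries, in which fewer genes were detected (33964 to 37516 against 40023 to 44516). Under scaling by total count alone, tried after the data were seen, the pooled median of the members was -0.000664, with 0 called higher and 2 lower (Cox6b2 and Cox8c), and that of all genes tested was -0.69 in place of -0.28. The rises given below therefore hold relative to the TMM scale, whereas ratios between members of one library do not depend on it.

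**Figure D2:**
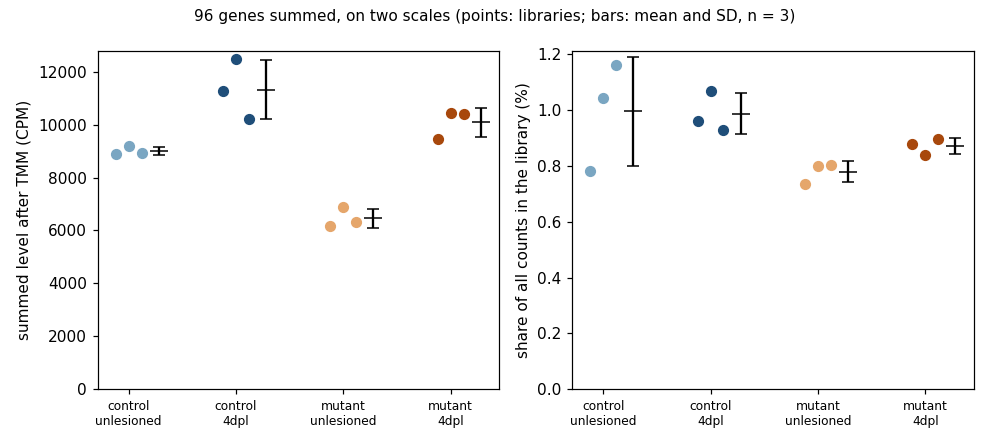
The left panel shows the summed level of the 96 members in CPM after TMM and the right panel their share of all counts in percent, with a point for each of the 12 libraries and the mean and SD of each group (n = 3). After TMM the 4dpl libraries sit above the unlesioned ones in both genotypes, and without it the control groups overlap at 0.782 to 1.16% and 0.930 to 1.07%.

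Taken within one genotype, fewer members passed. In the control 5 members rose and 0 fell (Sdha, Sdhc, Ndufs1, Ndufa10 and Cox7a1), where 5.12% of all genes tested were called higher and 5.01% lower, and 14.8% of the protein-coding genes above 10 CPM were called higher. The edgeR fit called 0 members in the libraries labelled mutant, where the smallest Benjamini-Hochberg adjusted p of a member was 0.0522, 84 members were higher and 1 lower at an unadjusted p below 0.05, and 0.0225% of all genes tested were called higher and 0.113% lower. At that unadjusted threshold 15.9% of all genes tested were higher and 17.9% lower, and 46.2% of the protein-coding genes above 10 CPM were higher. DESeq2 called 34 members there, of which 1 was lower, where it called 4.28% of the genes it tested higher. Limma voom with sample weights called 72, where it called 11.2% higher. Without control unlesioned replicate 1 the edgeR counts were 17 in the control, of which 1 was lower, and 61 in the libraries labelled mutant, beside 12.2 and 7.72% of all genes tested that were then called higher. Without mutant unlesioned replicate 1 they were 4 and 17, beside 5.15 and 6.36%. For DESeq2, voom and these fits the share was not counted over protein-coding genes above 10 CPM. In the main fit of the control that share was 14.8%, where all genes tested gave 5.12%. Leaving out any of the 3 control 4dpl libraries, control unlesioned replicate 2 or 3, or mutant unlesioned replicate 3 left 0 calls in the control, as did fitting the 2 control groups alone or keeping only genes with 10 counts in every library. All 3 libraries at 4dpl exceeded all 3 unlesioned ones in 40 members of the control and 85 of the libraries labelled mutant, where 42.6 and 51.5% of the protein-coding genes above 10 CPM did. The median log2 difference of the members was 0.22 in the control and 0.65 in the libraries labelled mutant, beside 0.41 and 0.54 for the protein-coding genes above 10 CPM. That of the control was -0.022 with 10 counts in every library and -0.13 under total-count scaling, so that its direction was not stable.

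**Figure D3:**
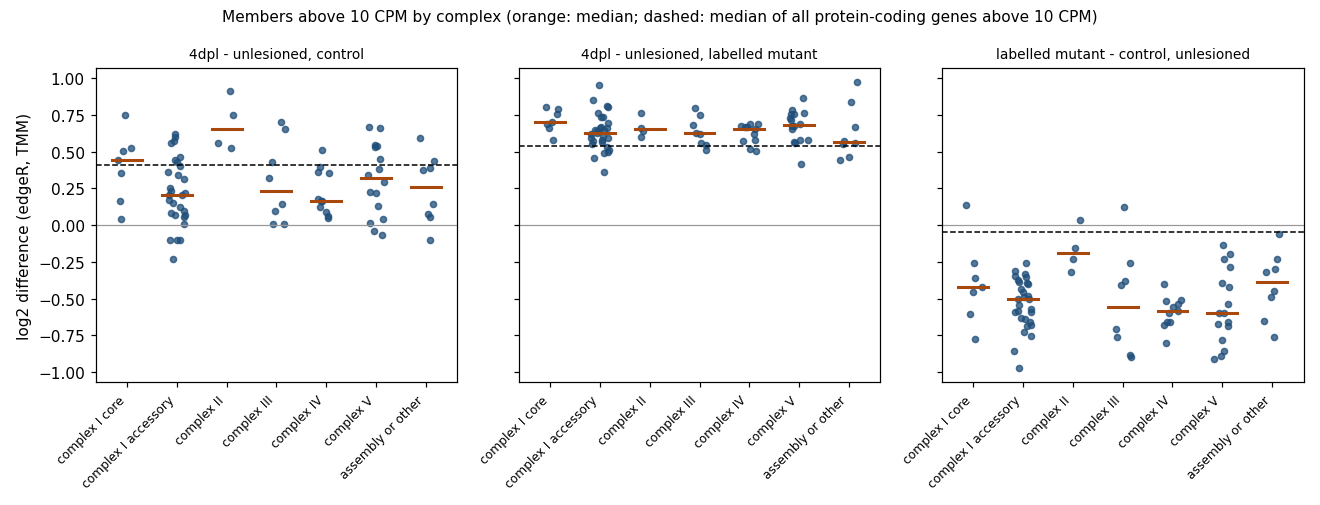
Points are the 83 members with a mean above 10 CPM, by complex, and the vertical axis is the log2 difference of edgeR on the TMM scale, for the lesion in each genotype and for the genotypes without lesion. Orange lines give the median of each complex and dashed lines the median of all protein-coding genes above 10 CPM, and in the control the medians of complexes III, IV and V and of the accessory subunits of complex I lie below that line.

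Complex II, succinate dehydrogenase, was the one complex of which every subunit was called. Counts per complex, here and below, stand beside the 41.3% of protein-coding genes above 10 CPM that were called higher. No complex was tested against that share. It has no mitochondrially encoded part and also serves the citric acid cycle. Sdha (chromosome 13, 74322254 to 74350280, minus strand of GRCm38), the flavoprotein that oxidises succinate, was at 275, 141 and 177 CPM in the unlesioned and 413, 364 and 342 CPM in the 4dpl libraries of the control. It was at 235, 189 and 183 CPM unlesioned and 304, 282 and 359 CPM at 4dpl in the libraries labelled mutant. All 6 libraries at 4dpl were above all 6 unlesioned ones, although control unlesioned replicate 1 reached 275 CPM, close to the lowest 4dpl value. The pooled log2 difference of Sdha was 0.78 ± 0.19 (SE), with an edgeR adjusted p of 0.00819, and that within the control 0.92 ± 0.27 (SE), with an edgeR adjusted p of 0.0456.

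Sdhc (chromosome 1, 171127165 to 171150603, minus strand), a membrane anchor that holds the haem and the ubiquinone site, was at 62.3, 54.4 and 60.5 CPM in the unlesioned and 92.5, 101 and 104 CPM in the 4dpl libraries of the control. The libraries labelled mutant had 61.0, 48.1 and 49.9 CPM unlesioned and 87.7, 88.4 and 94.0 CPM at 4dpl, again with no overlap between lesioned and unlesioned libraries. Sdhc had the smallest p of all members, with a pooled log2 difference of 0.76 ± 0.13 (SE) and an edgeR adjusted p of 0.00308, and it rose in the control alone by 0.75 ± 0.19 (SE, edgeR adjusted p = 0.0356). Sdhb, the iron-sulfur subunit, rose by 0.61 ± 0.14 (SE, edgeR adjusted p = 0.00728) and Sdhd, the other anchor, by 0.57 ± 0.16 (SE, edgeR adjusted p = 0.0140) in the pooled contrast. Within each library, which needs no scaling, the share of complex II in the counts of all 96 members was 4.52 to 7.06% in the control unlesioned and 6.91 to 7.71% in the control 4dpl libraries, which overlapped. Those labelled mutant had a share of 6.74 to 7.93% unlesioned and 6.80 to 7.43% at 4dpl, which overlapped too. Among the members the lesion difference went with the length of the mRNA in the control and pooled, but not in the libraries labelled mutant. Over the 83 above 10 CPM, Spearman's rho between length and the log2 difference was 0.329 pooled, 0.488 in the control and -0.145 in the libraries labelled mutant. Over the 9495 protein-coding genes it was 0.00665, 0.0443 and -0.0647 (genes of the same libraries, not independent replicates). The median pooled difference was 0.39 for members of up to 600 bases and 0.69 for the 6 of 2000 to 4000 bases, against 0.38 and 0.52 for the protein-coding genes of these lengths, and in the control it was 0.12 and 0.71 against 0.13 and 0.49. The mRNAs of complex II have 1142 to 3171 bases, and the part of length in the calls of single subunits was not tested.

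The promoters of Sdha and Sdhd are shown because both genes rose and both carry motifs of factors known for nuclear genes of the respiratory chain. NRF1 binds a palindromic GC-rich motif, searched for as GCGCA and GCGC with any base between them, and factors of the ETS family such as GABPA bind a motif searched for as CCGGAAG, both on either strand. The sequences are the 250 bases before the start site from RefSeq (GRCm38.p6, chr13:74350241-74350490, minus strand, and chr9:50603850-50604099, minus strand), written 5′ to 3′ along the gene, with matches to either motif in capitals.
Sdha: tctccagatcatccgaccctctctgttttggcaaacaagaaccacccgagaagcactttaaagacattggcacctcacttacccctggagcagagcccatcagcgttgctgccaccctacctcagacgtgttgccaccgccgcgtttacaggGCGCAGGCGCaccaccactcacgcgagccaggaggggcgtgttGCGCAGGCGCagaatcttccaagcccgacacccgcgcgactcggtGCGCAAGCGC
Sdhd: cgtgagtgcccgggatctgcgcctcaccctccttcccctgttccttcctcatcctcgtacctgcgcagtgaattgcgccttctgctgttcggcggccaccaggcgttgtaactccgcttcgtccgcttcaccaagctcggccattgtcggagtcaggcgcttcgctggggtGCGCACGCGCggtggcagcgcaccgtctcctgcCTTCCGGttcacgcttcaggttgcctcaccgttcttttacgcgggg
The Sdha window holds 3 matches to the NRF1 motif and 0 to the ETS motif, and the Sdhd window 1 of each. Over the whole windows, 250 bases before to 50 after the start, RefSeq gave one or more for 75 of the 96 members, 80 windows in all. The NRF1 motif was in 25% of them, against 6.38% of the 21263 windows of all protein-coding genes. The ETS motif was in 22.5% against 11.6%. Of other motifs searched, that of YY1 (AAGATGGCG) was in 10% against 1.83%, that of the ERR receptors (TCAAGGTCA) in 2.5% against 0.334%, and the Sp1 motif (GGGCGG) in 45% against 46.2%. In 1 member window matches to different motifs shared a base. These are matches of letters and not measured binding. Sdha and Sdhd were picked by rise and motif together, and Sdhc had no window. Whether the motifs go with a rise was not tested.

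Of the 7 core subunits of complex I, which carry the flavin and the iron-sulfur clusters that take electrons from NADH, 5 rose in the pooled contrast, among them Ndufs1, Ndufs3, Ndufs8 and Ndufv2, and the median of the 7 was 0.58. Ndufs1 (chromosome 1, 63143596 to 63176833, minus strand), the largest, was at 73.5, 45.6 and 54.1 CPM in the unlesioned and 98.2, 94.4 and 99.3 CPM in the 4dpl libraries of the control. Ndufs1 in the libraries labelled mutant was at 71.4, 60.3 and 58.9 CPM unlesioned and 94.5, 106 and 107 CPM at 4dpl. Every 4dpl library exceeded every unlesioned one, and the rise was 0.72 ± 0.15 (SE) pooled (edgeR adjusted p = 0.00500) and 0.75 ± 0.21 (SE) in the control (edgeR adjusted p = 0.0439). Ndufs3 had the smallest p of the core, with 0.66 ± 0.13 (SE, edgeR adjusted p = 0.00431), and the hydrophilic subunit Ndufv2 followed with 0.60 ± 0.13 (SE, edgeR adjusted p = 0.00551). Ndufv1, which binds the flavin, had the largest p of the core and did not pass, with 0.37 ± 0.16 (SE, edgeR adjusted p = 0.0762), and its difference was -0.041 under total-count scaling.

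Accessory subunits surround the core and stabilise it, and 14 of the 32 rose in the pooled contrast (Ndufa1, Ndufa5, Ndufa7, Ndufa9, Ndufa10, Ndufa12, Ndufab1, Ndufb4, Ndufb5, Ndufb6, Ndufb8, Ndufc1, Ndufc2 and Ndufs5). Their median was 0.36 and they ran from -0.38 to 0.71. The negative values were of members below 10 CPM, since the lowest of the 83 members above 10 CPM was at 0.066. Ndufa12, an assembly-related subunit near the core, was at 32.8, 34.4 and 39.6 CPM in the control unlesioned and 53.9, 60.5 and 47.8 CPM in the control 4dpl libraries, and at 24.3, 27.0 and 24.7 CPM unlesioned and 44.2, 44.0 and 44.5 CPM at 4dpl in the corresponding libraries labelled mutant. No library at 4dpl was as low as an unlesioned one, and the pooled difference was 0.70 ± 0.13 (SE, edgeR adjusted p = 0.00348). Ndufa9, which sits by the ubiquinone-binding region, rose by 0.71 ± 0.13 (SE, edgeR adjusted p = 0.00378) and the small membrane subunit Ndufc1 by 0.69 ± 0.14 (SE, edgeR adjusted p = 0.00441), although for Ndufc1 the lowest 4dpl value, 46.4 CPM, was below control unlesioned replicate 3 at 46.8 CPM. Ndufa10 also rose in the control alone, by 0.62 ± 0.19 (SE, edgeR adjusted p = 0.0490).

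At the other end, Ndufb7, a small subunit with paired cysteines, had the largest p of the accessory subunits. It was at 98.2, 140.2 and 112 CPM unlesioned and 88.4, 120.1 and 90.0 CPM at 4dpl in the control, and at 55.7, 88.2 and 68.1 CPM unlesioned and 79.1, 109 and 84.6 CPM at 4dpl in the libraries labelled mutant. The groups overlapped in both genotypes, the difference was 0.066 ± 0.17 (SE, edgeR adjusted p = 0.771), and it was negative under 5 of the other settings. Other small accessory subunits, such as Ndufb11 (0.20) and Ndufa3 (0.27), did not pass either. In the control the accessory median was 0.19 and the core median 0.44, and in the libraries labelled mutant they were 0.62 and 0.70. The difference between members of different mRNA length in the control, given above, was not separated from that between core and accessory subunits, and the part of length was not tested.

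In complex III, the cytochrome bc1 complex, 4 of 8 nuclear subunits rose (Uqcrb, Uqcrc2, Uqcrfs1 and Uqcrq), with a median of 0.43 over the 8. Uqcrb, which binds ubiquinone, was at 95.3, 80.2 and 105 CPM unlesioned and 153, 153 and 134 CPM at 4dpl in the control, and at 68.9, 76.5 and 69.7 CPM unlesioned and 129.6, 137 and 108 CPM at 4dpl in the libraries labelled mutant. Lesioned and unlesioned libraries did not overlap, and the pooled rise was 0.73 ± 0.14 (SE, edgeR adjusted p = 0.00420). The core protein Uqcrc2 rose by 0.63 ± 0.15 (SE, edgeR adjusted p = 0.00862) and the Rieske iron-sulfur protein Uqcrfs1 by 0.53 ± 0.14 (SE, edgeR adjusted p = 0.0107). The hinge protein Uqcrh, which helps cytochrome c to dock, had the largest p, with 0.29 ± 0.15 (SE, edgeR adjusted p = 0.125). Its values were 93.4, 120.3 and 108 CPM in the control unlesioned libraries against 99.0, 126 and 98.5 CPM at 4dpl, which overlapped, and 58.0, 73.7 and 65.0 against 90.0, 109 and 91.4 CPM at 4dpl in the libraries labelled mutant, which did not.

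Complex IV, cytochrome c oxidase, had 7 of its 19 nuclear genes called higher (Cox5a, Cox6a2, Cox6b1, Cox7a1, Cox7b, Cox7c and Ndufa4, a subunit named for complex I) and 1 lower (Cox8c). Their median was 0.38. Cox7b, a small subunit encoded on the X chromosome, rose by 0.60 ± 0.14 (SE, edgeR adjusted p = 0.00766). The most abundant, Cox4i1, was at 307, 425 and 389 CPM unlesioned and 393, 487 and 379 CPM at 4dpl in the control, which overlapped, and at 217, 244 and 238 CPM unlesioned and 346, 365 and 390.1 CPM at 4dpl in the libraries labelled mutant, which did not. Its pooled difference was 0.41 ± 0.16 (SE, edgeR adjusted p = 0.0515), just outside the threshold, and -0.014 under total-count scaling. The largest p of the complex was that of Ndufa4l2, a hypoxia-induced relative of Ndufa4, with 3 to 24 counts per library and a difference of -0.041 ± 0.54 (SE).

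Several subunits of complex IV have a second isoform used in particular tissues, and 4 of these were compared with their common counterpart. Cox7a1 (chromosome 7, 30184144 to 30186078, plus strand), the heart and skeletal muscle form, had the largest rise of all members. It was at 0.563, 0.765 and 0.918 CPM in the control unlesioned libraries and 1.66, 2.79 and 2.23 CPM at 4dpl. In the libraries labelled mutant it was at 0.442, 0.731 and 0.679 CPM unlesioned and 1.89, 1.40 and 1.08 CPM at 4dpl. All 4dpl libraries exceeded all unlesioned ones at this low level, and the rise was 1.40 ± 0.29 (SE) pooled (edgeR adjusted p = 0.00494) and 1.57 ± 0.41 (SE) in the control (edgeR adjusted p = 0.0379). Its common counterpart Cox7a2 was at 117, 135 and 127 CPM in the control unlesioned and 126, 153 and 117 CPM in the control 4dpl libraries, which overlapped, with a pooled difference of 0.32 ± 0.15 (SE, edgeR adjusted p = 0.101).

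The ratio of both does not depend on library scaling. Counts of Cox7a1 were 0.480 to 0.723% of those of Cox7a2 in the control unlesioned and 1.32 to 1.91% in the control 4dpl libraries. Those labelled mutant had a ratio of 0.649 to 0.869% unlesioned and 0.971 to 1.77% at 4dpl. The groups did not overlap in either genotype, and the ratio was 2.12-fold higher at 4dpl (exact permutation test of the lesion labels within genotype, two-sided, p = 0.00500, the smallest that the 400 arrangements allow, adjusted p = 0.0200 over the 4 isoform pairs tested). This ratio was chosen after the values of Cox7a1 were known. Markers of skeletal muscle were 8 in all and none was at 0 throughout. They summed to 11.4 to 14.0 CPM in the control unlesioned and 5.68 to 8.37 CPM in the control 4dpl libraries. In those labelled mutant the sums were 10.5 to 12.95 and 6.47 to 18.1 CPM, which overlapped. The part of muscle cells in the values of Cox7a1 was not tested. Markers of pericytes or smooth muscle, also 8, summed to 19.1 to 29.3 and 11.9 to 20.8 CPM in the control and to 12.4 to 28.9 and 11.2 to 27.1 CPM in the libraries labelled mutant.

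**Figure D4:**
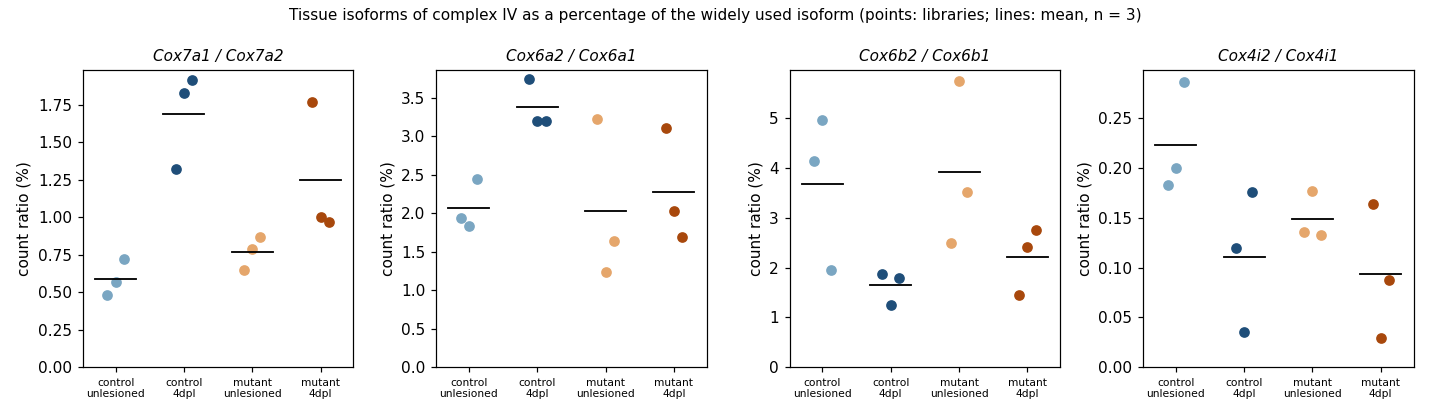
The count of each tissue isoform is shown as a percentage of the count of its common counterpart, with a point for each library and a line for the mean of each group (n = 3). Cox7a1 against Cox7a2 is higher at 4dpl in both genotypes, while the mean of Cox6b2 against Cox6b1 and of Cox4i2 against Cox4i1 is lower there.

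The other heart and muscle isoform, Cox6a2, rose by 0.77 ± 0.23 (SE) in the pooled contrast (edgeR adjusted p = 0.0198). Counts of Cox6a2 were 1.84 to 2.45% of those of Cox6a1 in the control unlesioned and 3.20 to 3.74% in the control 4dpl libraries, but 1.24 to 3.22% and 1.69 to 3.12% in the libraries labelled mutant, where they overlapped (ratio 1.39-fold higher, exact permutation test, two-sided, p = 0.0950, adjusted p = 0.0950). The ratios of isoforms known from other tissues were lower at 4dpl. The testis isoform Cox6b2 was at 1.94 to 4.97% of Cox6b1 in the control unlesioned and 1.25 to 1.88% in the control 4dpl libraries, and at 2.49 to 5.75% and 1.46 to 2.76% in those labelled mutant, a ratio of 0.522 between 4dpl and unlesioned (exact permutation test, two-sided, p = 0.0200, adjusted p = 0.0400). The lung isoform Cox4i2, which also answers to low oxygen, was at 0.183 to 0.286% of Cox4i1 in the control unlesioned and 0.0356 to 0.176% at 4dpl, and at 0.133 to 0.177% and 0.0294 to 0.164% in those labelled mutant, a ratio of 0.460 (exact permutation test, two-sided, p = 0.0350, adjusted p = 0.0467). It had only 4 to 57 counts per library. Neither isoform passed by itself in edgeR, with pooled differences of -0.49 ± 0.31 (SE) for Cox6b2 and -0.49 ± 0.47 (SE) for Cox4i2. Of the 8 pericyte or smooth muscle markers 2 were called lower and 0 higher in the pooled contrast (median -0.73). The part of such cells in these ratios was not tested.

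Cox8c, another isoform of testis, fell, but on few counts. It had 2, 13 and 24 counts in the control unlesioned, 1, 1 and 0 in the control 4dpl, 2, 27 and 4 in the mutant unlesioned and 0, 1 and 0 in the mutant 4dpl libraries. Over all 12 libraries 3 counts came from 4dpl and 72 from unlesioned tissue, a ratio per total count of 0.0328 (95% exact interval 0.00660 to 0.0997, counting error only). Most of the counts came from 3 unlesioned libraries, the only ones with at least 10 counts. Cox8c thus became a member only through the tissue in which it was higher. Its fall cannot be separated from the rule that admitted it. The edgeR log2 difference was -4.27 ± 1.04 (SE, adjusted p = 0.00855), and -5.28 to -3.40 with 1 library left out at a time. Cox7b2, likewise expressed in testis, differed by -1.67 ± 0.83 (SE) and did not pass (edgeR adjusted p = 0.115), and the common forms Cox8a (0.34 ± 0.15, SE) and Cox6a1 (0.34 ± 0.16, SE) did not pass either. The promoters of Cox7a1 and Cox7a2 are given for contrast, again as the 250 bases before the start site from RefSeq (GRCm38.p6, chr7:30183921-30184170, plus strand, and chr9:79759854-79760103, minus strand), 5′ to 3′ along the gene. Neither holds a match to the NRF1 or ETS motif.
Cox7a1: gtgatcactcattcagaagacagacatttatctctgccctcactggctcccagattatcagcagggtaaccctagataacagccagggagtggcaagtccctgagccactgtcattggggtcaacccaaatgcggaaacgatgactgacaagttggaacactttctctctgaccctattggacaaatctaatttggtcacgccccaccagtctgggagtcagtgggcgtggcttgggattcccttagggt
Cox7a2: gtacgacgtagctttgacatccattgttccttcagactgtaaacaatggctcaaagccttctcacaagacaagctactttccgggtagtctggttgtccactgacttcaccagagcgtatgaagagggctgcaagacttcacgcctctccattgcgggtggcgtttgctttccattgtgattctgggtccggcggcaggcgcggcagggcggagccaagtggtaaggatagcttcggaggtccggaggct

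In complex V 9 of 16 genes rose (Atp5a1, Atp5b, Atp5c1, Atp5f1, Atp5g1, Atp5g2, Atp5g3, Atp5mpl and Atp5o), with a median of 0.50. Atp5b (chromosome 10, 128083273 to 128090391, plus strand) was at 842, 553 and 595 CPM in the control unlesioned and 1080.0, 1116 and 946 CPM in the control 4dpl libraries. In the libraries labelled mutant it was at 569, 545 and 519 CPM unlesioned and 845, 895 and 946 CPM at 4dpl. Although the groups did not overlap, control unlesioned replicate 1 nearly reached the lowest 4dpl library, and the rise was 0.69 ± 0.18 (SE, edgeR adjusted p = 0.0102). Atp5a1, which forms the catalytic hexamer with Atp5b, rose by 0.66 ± 0.16 (SE, edgeR adjusted p = 0.00795). The c-ring, which turns as protons pass, is encoded by 3 genes for one identical mature protein, and all of them rose: Atp5g2 by 0.64 ± 0.13 (SE, edgeR adjusted p = 0.00444), Atp5g1 by 0.62 ± 0.14 (SE, edgeR adjusted p = 0.00609) and Atp5g3 by 0.56 ± 0.14 (SE, edgeR adjusted p = 0.0108). Per kilobase, Atp5g3 was the highest of them at 271 CPM, against 150.5 for Atp5g1 and 90.3 for Atp5g2. The membrane subunit Atp5l, part of the dimer interface, had the largest p with 0.19 ± 0.15 (SE, edgeR adjusted p = 0.321).

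Among the 10 assembly factors and other proteins, 3 rose. They were Atp5s by 0.79 ± 0.18 (SE, edgeR adjusted p = 0.00694), the complex I assembly factor Ndufaf6 by 0.61 ± 0.20 (SE, edgeR adjusted p = 0.0285) and Cox7a2l by 0.43 ± 0.14 (SE, edgeR adjusted p = 0.0304). Atp5s was at 11.7, 8.16 and 9.16 CPM in the control unlesioned and 15.4, 13.7 and 14.8 CPM in the control 4dpl libraries, and at 11.4, 8.91 and 7.59 CPM unlesioned and 17.3, 14.1 and 23.4 CPM at 4dpl in those labelled mutant, with all 4dpl libraries above all unlesioned ones. Ndufaf5, which modifies a core subunit of complex I, had the largest p with 0.33 ± 0.18 (SE, edgeR adjusted p = 0.145).

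The second comparison was between the genotypes without lesion. Here 91 of the 96 members were lower in the libraries labelled mutant, with a median log2 difference of -0.50, beside 0.021 for all genes tested and -0.048 for the protein-coding genes above 10 CPM. The edgeR fit called 0 members (smallest Benjamini-Hochberg adjusted p = 0.693) and 0 of all genes tested (0%). DESeq2 called 3 members lower (Uqcrq, Ndufs6 and Ndufa2), and of all 31109 genes it called 28 lower and 16 higher. At an unadjusted p below 0.05, 52 members were lower and 0 higher, where 3.5% of all genes tested and 8.11% of the protein-coding genes above 10 CPM were lower. In 66 members all 3 libraries labelled mutant lay below all 3 of the control, against 6.28% of all genes tested and 11.6% of the protein-coding genes above 10 CPM. The direction of the median was kept under every setting tried, between -0.59 and -0.38.

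The 3 members with the smallest p all encode small subunits. Ndufa2, an accessory subunit of complex I, was at 97.5, 136 and 142 CPM in the control and 60.1, 68.6 and 62.5 CPM in the libraries labelled mutant, a log2 difference of -0.97 ± 0.22 (SE, unadjusted p = 0.000579 and adjusted p = 0.693 in edgeR). Uqcrq of complex III was at 109.5, 134 and 137 CPM in the control and 64.2, 71.8 and 70.1 CPM in the libraries labelled mutant, with -0.88 ± 0.20 (SE), and Ndufs6, a zinc-binding subunit of complex I, at 67.7, 92.5 and 84.6 CPM in the control and 42.4, 48.5 and 44.5 CPM in the libraries labelled mutant, with -0.85 ± 0.20 (SE). For each of these the groups did not overlap, and the lowest control library was replicate 1. For the large subunits Ndufs1 and Sdha they overlapped. Ndufs1 was at 73.5, 45.6 and 54.1 CPM in the control and 71.4, 60.3 and 58.9 CPM in the libraries labelled mutant (0.14 ± 0.21, SE), and Sdha at 275, 141 and 177 CPM in the control and 235, 189 and 183 CPM in the libraries labelled mutant (0.033 ± 0.26, SE).

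The difference went with the length of the mRNA, and it did so in other genes too. Over the 83 members above 10 CPM, Spearman's rho between mRNA length and the log2 difference was 0.708, and over the 9495 protein-coding genes, which include these members, it was 0.329 (genes of the same libraries, not independent replicates). Members with an mRNA of up to 600 bases had a median of -0.68, those of 600 to 1000 bases -0.59, those of 1000 to 2000 bases -0.32 and the 6 of 2000 to 4000 bases -0.19. For the protein-coding genes the medians in the same ranges were -0.56, -0.42, -0.19 and 0.0087. All 3 libraries labelled mutant lay below all 3 of the control in 26 of 27 members of up to 600 bases and in 106 of 159 protein-coding genes of that length, and in 22 of 25 members and 257 of 551 protein-coding genes of 600 to 1000 bases. From 1000 to 2000 bases the counts were 15 of 25 members and 428 of 2116 genes. Genes of the cytosolic ribosome, which have short mRNAs as well, had a median of -0.64 over 82 genes in this comparison.

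**Figure D5:**
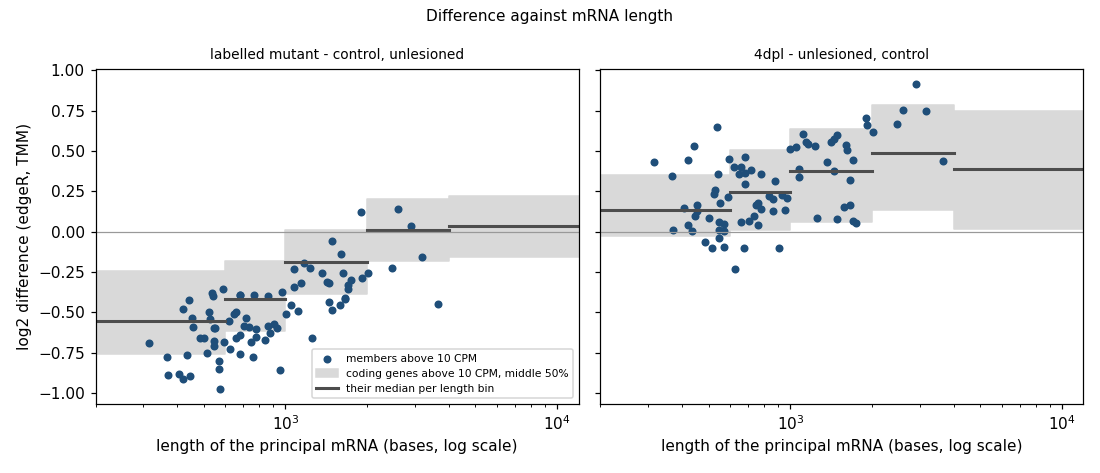
Points are the 83 members above 10 CPM, placed by the length of their principal mRNA in bases on a log axis and by their log2 difference, between genotypes without lesion on the left and between 4dpl and unlesioned in the control on the right. Grey bars give the middle 50% and the median of the protein-coding genes above 10 CPM in each length range, and the short members lie low in both panels, which share the control unlesioned libraries.

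Short and long members stood furthest apart in control unlesioned replicate 2. Within each library the median deviation of log2(CPM + 0.1) from the gene's mean was compared between the 27 members of up to 600 bases and the 31 of more than 1000. Short members exceeded long ones by 0.55 in control unlesioned replicate 2 and by 0.26 in replicate 3, and the difference was -0.033 in replicate 1. It went as far the other way as replicate 3, to -0.25, in mutant unlesioned replicate 1. Over the 10 libraries other than control unlesioned replicates 2 and 3 it was between -0.25 and 0.014. The same value over all protein-coding genes above 10 CPM was 0.65 in control unlesioned replicate 2 and 0.48 in replicate 3. It was -0.54 to 0.20 in the other 10, with the -0.54 in mutant unlesioned replicate 1. The part of RNA quality or library preparation in these values was not tested. Without control unlesioned replicate 2 the median of the members between genotypes was -0.49, and without replicate 3 it was -0.50. Without mutant unlesioned replicate 1 it was -0.47.

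At 4dpl the genotypes were closer. The members had a median log2 difference of -0.15 (-0.31 to -0.086 with 1 library left out at a time) beside 0.049 for all genes tested. EdgeR called 0 members and 0 of all genes (0% lower), and DESeq2 and voom called 0 members. In edgeR 1 member was lower at an unadjusted p below 0.05 (Cox6a2), where 1.77% of all genes tested were. Cox6a2 was at 10.6, 11.6 and 8.36 CPM in the control and 7.14, 5.26 and 4.89 CPM in the libraries labelled mutant, which did not overlap, a difference of -0.83 ± 0.33 (SE, edgeR adjusted p = 0.577). Next came Atp5g1 with -0.35 ± 0.19 (SE) and Cox7b with -0.33 ± 0.20 (SE), neither of which passed. In 14 members (14.6%) all 3 libraries labelled mutant lay below all 3 of the control, against 5.44% of all genes tested and 8.49% of the protein-coding genes above 10 CPM.

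The test of whether the lesion acted differently in the genotypes, an interaction term in the same edgeR fit, called 0 members and 0 of all genes (0%), and DESeq2 and voom called 0 members too. In all, 6 members had an unadjusted p below 0.05, all with a larger rise in the libraries labelled mutant (Ndufs6, Ndufaf2, Ndufa3, Atp5k, Atp5e and Ndufa2), where 2.66% of all genes tested were. The interaction was 0.83 ± 0.29 (SE) for Ndufs6, 0.94 ± 0.36 (SE) for Ndufaf2 and 0.75 ± 0.29 (SE) for Ndufa3, each with an edgeR adjusted p of 0.9999. Ndufs6 was at 73.6, 88.6 and 66.5 CPM in the control and 66.7, 79.1 and 79.5 CPM in the libraries labelled mutant at 4dpl, so that the genotypes overlapped after the lesion but not without it. The lesion contrast of the control, the genotype contrast without lesion and the interaction all use the control unlesioned libraries, and the median of the members in the interaction was 0.35.

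Genes outside the members whose products serve the same organelle were set beside them on the TMM scale. In the pooled contrast 19 of 40 further assembly factors rose and 0 fell (median 0.46), led by Tmem126a, an assembly factor of complex I, with 1.11 ± 0.18 (SE). Of the genes for ubiquinone synthesis and electron carriers 10 of 20 rose and 1 fell (median 0.49), among them Coq7 (0.68 ± 0.14, SE) and Etfa (0.72 ± 0.15, SE), while Cycs, cytochrome c itself, did not pass (0.33 ± 0.17, SE). Proteins of the mitochondrial ribosome, which translates the mitochondrially encoded subunits, rose in 54 of 77 cases and fell in 0 (median 0.52), with Mrpl17 at 0.77 ± 0.13 (SE). Genes of mitochondrial mass and protein import rose in 17 of 20 cases and fell in 0 (median 0.70), among them the import receptor Tomm20 (0.79 ± 0.14, SE), the outer membrane channel Vdac1 (0.81 ± 0.16, SE) and the chaperone Hspd1 (0.81 ± 0.16, SE). Cytosolic ribosomal proteins rose in 35 of 82 cases and fell in 1 (median 0.43). All of these counts stand beside the 41.3% of protein-coding genes above 10 CPM that were called higher.

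Regulators of mitochondrial biogenesis went different ways. Of 20 tested 9 rose and 1 fell (median 0.46). The one that fell was Ppargc1a, the coactivator PGC-1alpha that drives respiratory genes, at 1.48, 4.61 and 6.39 CPM in the control unlesioned and 2.26, 1.66 and 2.33 CPM in the control 4dpl libraries. Ppargc1a in the libraries labelled mutant was at 4.31, 6.90 and 7.50 CPM unlesioned and 2.07, 1.503 and 1.83 CPM at 4dpl. Control unlesioned replicate 1 was lower than the 3 control libraries at 4dpl, whereas the groups labelled mutant did not overlap, and the pooled difference was -1.39 ± 0.32 (SE, edgeR adjusted p = 0.00669). Gabpa, the ETS factor named above, rose by 0.82 ± 0.24 (SE, edgeR adjusted p = 0.0176) and Tfam, which packages and transcribes mitochondrial DNA, by 0.47 ± 0.14 (SE, edgeR adjusted p = 0.0162). Nrf1 (0.13 ± 0.17, SE), Esrra (0.22 ± 0.16, SE) and Ppargc1b (0.50 ± 0.27, SE) did not pass. Hypoxia response genes rose in 5 of 15 cases and fell in 0 (median 0.48), with Hif1a at 1.44 ± 0.33 (SE) and Bnip3, a receptor for the autophagy of mitochondria, at 0.93 ± 0.17 (SE). Uncoupling and mitochondrial antioxidant genes rose in 5 of 12 cases (median 0.45), among them the peroxiredoxin Prdx3 (0.74 ± 0.14, SE), and 1 fell, the uncoupling protein Ucp3 (-1.05 ± 0.34, SE).

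Some members are hard to count. Of the 96, 39 share at least 100 bases at 95% identity with another annotated gene, and in 17 such copies cover more than 50% of the mRNA, among them Atp5g1, Atp5g2, Atp5h, Atp5l, Ndufs3, Ndufs6 and Uqcrb. Their levels and differences are uncertain, since the counting could split or drop reads that such copies share. In 4 members more than 20% of the exon bases overlap another gene (Ndufaf2, Atp5o, Ndufb6 and Ndufa13), and strand was not stated to be used in counting. Cox6c2, Ndufb4c and Ndufs6b are processed copies with a mean of 0.216 to 0.450 CPM. The members nearest to the threshold were Cox8c with 3 libraries of 10 counts or more and, with 4 each, Cox7b2 and Ndufa11b. For Cox8c and Cox7b2 these libraries were all unlesioned. Just outside it was Cox8b, a muscle isoform with 0 to 7 counts per library, and a second identifier of Atp5o had 0 counts in all libraries. Members also lie near one another in the genome, as Atp5d, Ndufs7 and Uqcr11 do on chromosome 10 (103.3 and 146.2 kb apart) and Ndufs8 and Ndufv1 on chromosome 19 (94.8 kb).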

How the data were processed

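RNA-seq counts per gene were analysed in 12 libraries of spinal cord, 3 in each of 4 groups. The counts were deposited by the authors, who aligned reads to mm10 and to ribosomal and mitochondrial sequences with BWA and counted uniquely aligned reads over Ensembl GRCm38 exons with featureCounts. The submitters' processing notes name STAR and DESeq2 1.2.5 instead, and which tool made the files was not settled. Library totals set the precision given in the report.

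Genes kept by filterByExpr (31109) were scaled by TMM and tested with glmQLFit and glmQLFTest of edgeR 4.0.16 (limma 3.58.1, R 4.3.3) on all 12 libraries with 1 mean per group. A gene was called at an unadjusted p below 0.01 and a Benjamini-Hochberg adjusted p below 0.05 over all genes tested, and the SE was taken from the log2 difference and the F statistic. The scripts were tested on simulated data. Nothing in the labels says that each library came from a separate animal, so p-values measure the spread between libraries.

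Coordinates are those of the count files' annotation (GRCm38). Principal mRNA lengths came from GENCODE, copies were found with BLAST 2.17.0, and exact permutation tests were written out over all arrangements. The members and the other gene lists were chosen with earlier results of these data known. Genes were named by rule: every called member, per complex the 3 smallest and the largest p, the highest and lowest level per length, the tissue isoforms, the 3 smallest p in each genotype contrast and in the interaction, and members next to the count threshold. Of these, 1 member that this rule names is counted but not reported here by name. Others named in the text, such as Ndufb11 and the promoters shown, were chosen after their values were seen. Alternatives were DESeq2 1.42.0, limma voom with sample weights, RLE size factors, other filters, a fit to the compared groups alone, the replicate number as a block, the adjusted p alone, and each library left out. Total-count scaling, a newer quasi-likelihood option and protein-coding genes alone were added after seeing the data. Data of other kinds were not analysed here.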

Additional observations from a re-analysis of the deposited data

How the results depend on the processing

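The lesion result of the members depended on the scaling and on the genes that entered it, and the cause was not tested. Pooled over genotypes, the median of the members was 0.32 with DESeq2 and 0.32 with RLE size factors, 0.52 with no filter, 0.14 with 10 counts in every library, 0.21 with protein-coding genes alone and -0.000664 with total-count scaling. The count of members called was 10 of 89 (11.2%) with 10 counts in every library and 20 of 92 with protein-coding genes alone, 1 of them lower. In these settings 10.5 and 13.2% of all genes tested were called higher. With total-count scaling the count was 2, both lower, where 2.56% of all 31109 genes were called higher and 8883 genes lower. Over all genes tested the pooled median was -0.28 with TMM, -0.38 with RLE, -0.69 with total-count scaling, 0.0039 with 10 counts in every library and -0.030 with protein-coding genes alone, and 43.4% of the calls were higher with TMM, 33.2% with DESeq2, 35.0% with RLE and 8.23% with total-count scaling. Total-count scaling, protein-coding genes alone and the newer option were chosen after seeing the data.

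In the control the count of members called was 17 with DESeq2 and 24 with voom, each with 1 lower. It was 9 with the newer option and 3 with protein-coding genes alone. With the compared groups alone, with 10 counts in every library and with total-count scaling it was 0. Of all genes tested, 5.12% were called higher there in edgeR, 8.42% with DESeq2, 15.5% with voom, 7.17% with the newer option and 5.84% of protein-coding genes alone. The median of the members there was 0.34 with no filter, -0.022 with 10 counts in every library, -0.13 with total-count scaling and 0.016 with protein-coding genes alone. The libraries labelled mutant gave counts of 34 with DESeq2 (1 lower), 72 with voom, 40 with the newer option and 1 with no filter. In these settings 4.28, 11.2, 4.42 and 0.621% of all genes tested were called higher. The median there was 0.51 with DESeq2, 0.51 with RLE, 0.42 with the compared groups alone, 0.34 with 10 counts in every library, 0.16 with total-count scaling and 0.42 with protein-coding genes alone. Between genotypes without lesion DESeq2 called 3 members lower, and of all 31109 genes it called 28 lower and 16 higher. Total-count scaling moved the median of the members there to -0.38 and that of the interaction to 0.22.

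Among named genes the pooled lesion difference turned negative under total-count scaling for Ndufv1 (-0.041), Ndufb7 (-0.36), Uqcrh (-0.14), Cox4i1 (-0.014) and Atp5l (-0.23). With 10 counts in every library it was -0.24 for Ndufb7, -0.018 for Uqcrh and -0.12 for Atp5l, and with protein-coding genes alone -0.16 for Ndufb7 and -0.036 for Atp5l. Ndufb7 was also at -0.038 with DESeq2 and -0.038 with RLE. Total-count scaling ended the call of 29 of the 44 named results.

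With 1 library left out at a time, the count of members called was 0 to 17 in the control, 0 to 61 in the libraries labelled mutant, 37 to 50 pooled, and 0 to 0 between genotypes in either tissue and for the interaction. The medians were 0.19 to 0.34, 0.58 to 0.72 and 0.40 to 0.48 for the lesion, -0.59 to -0.47 between genotypes without lesion, -0.31 to -0.086 at 4dpl and 0.20 to 0.43 for the interaction. The highest counts within a genotype came without control unlesioned replicate 1. The replicate numbers of the labels were not taken to pair the libraries, since deviations of same-numbered libraries correlated at 0.19, 0.05 and 0.19 in the control and at -0.03, 0.07 and -0.07 in those labelled mutant. The study's own sample list numbers some libraries differently, so which libraries came from the same mouse was not settled and the block bears on the numbers of the labels alone. With the replicate number as a block, 4 members were called in the control and 42 pooled, of which 1 was lower. In that fit 7.51 and 15.6% of all genes tested were called higher, and 42 of the 44 named results kept their direction and side of the threshold. Depth limits the isoforms Cox8c, Cox7b2 and Cox4i2, which had few counts.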

Other observations

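Of the 9 symbols left out as pseudogenes, 8 had 60 to 284 counts over the 12 libraries. Ndufb1-ps, which carries the name of an accessory subunit of complex I, had 55681 counts in all, in the range of subunits that were included. It was at 101, 107 and 96.7 CPM in the control unlesioned and 101, 114 and 101 CPM in the control 4dpl libraries. Those labelled mutant had 57.6, 79.5 and 64.3 CPM unlesioned and 94.8, 126 and 80.8 CPM at 4dpl.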
